A study of Mus musculus with 25 samples.

Results

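The comparison described here sets hippocampi of Scn1a+/- mice that had seizures against hippocampi of wild-type mice at postnatal day 24 (P24). Its members are 3 of the series' 25 RNA sequencing libraries, labelled as seizure libraries of Scn1a+/- F1 mice, and the 3 wild-type F1 libraries of the same age. Mice of both groups were F1 hybrids of 129S6/SvEvTac and C57BL/6, and 2 further P24 F1 libraries of Scn1a+/- mice with no seizures in their label served as a second reference. Each seizure library was a pool of hippocampi from 3 to 4 mice, while each seizure-free Scn1a+/- and wild-type library pooled 12 to 16. Because every mouse in the seizure pools carried the Scn1a+/- genotype and had seizures, genotype and seizures cannot be told apart against wild type. The labels give neither the number of seizures nor the time from the last one to collection. They also do not say whether the pools of a group came from separate litters or days, so the tests weigh differences against the variation among these particular pools. The libraries were pools of bulk tissue, in which fewer cells of a type and less RNA per cell cannot be told apart.

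Scn1a encodes Nav1.1, a voltage-gated sodium channel that fast-spiking inhibitory neurons depend on, and loss of 1 copy causes Dravet syndrome in people and spontaneous seizures in mice. Strong synchronous firing raises calcium in hippocampal neurons, and calcium-activated kinases switch on transcription factors such as Fos and Npas4 within minutes. These factors then drive slower effector genes that encode peptides, growth factors and synaptic proteins. Injured or overactive tissue also signals to astrocytes and microglia, in part through the cytokine LIF, its receptor subunit gp130 and the transcription factor STAT3, which switches on Gfap and its own inhibitor Socs3.

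The seizure libraries held 22026211, 19553419 and 21298295 counts, against 22861247, 24011969 and 21816220 counts in wild type, over 24421 gene symbols. Levels are given as CPM, the counts of a gene scaled to the size of its library. The targeted gene was lower in the seizure libraries. Scn1a (chromosome 2, 66270781 to 66440837, mm10) had 81.4, 68.3 and 88.3 CPM in the seizure libraries, against 129, 123 and 127 CPM in wild type. All 3 seizure libraries lay below all 3 wild-type libraries (log2 fold change -0.67, SE 0.10, adjusted p = 0.00246), at 0.628 times the wild-type level. The seizure-free Scn1a+/- libraries had 115 and 92.4 CPM in the fit of the 8 P24 F1 libraries. Genotype and seizures both set the seizure libraries apart from wild type, so their parts in this ratio cannot be told apart. All 15 markers of CA1, 19 of CA2 or CA3 and 20 of dentate granule cells passed the low-count filter. All 20 neocortical markers passed it too, so the filter does not set hippocampus apart from other brain tissue. Library numbers are those of the count files, and in the authors' deposited normalized table the numbers 1 and 3 are exchanged within both groups, so which of these pools is number 1 is uncertain.

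Of 15562 genes tested, 1615 were called with an adjusted p under 0.05 (Benjamini-Hochberg), or 10.4%. The 908 genes higher in the seizure libraries made up 5.83% of those tested and the 707 lower genes 4.54%. With upper-quartile scaling the split was even, at 849 higher and 846 lower genes. The rises were larger than the falls. At least 2-fold differences were seen for 328 higher and 92 lower genes, and at least 8-fold for 37 higher and 0 lower genes. The higher genes together took 5.53%, 6.23% and 5.75% of the counts of the seizure libraries, against 3.52%, 3.53% and 3.53% in wild type. The lower genes took 4.09%, 3.86% and 3.95% of the counts of the seizure libraries, against 5.56%, 5.71% and 5.70% in wild type. The seizure and wild-type libraries did not overlap for 31.7% of tested genes, and for 1612 of the 1615 called genes. An unadjusted p under 0.05 was reached by 4030 genes.

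The number of calls depended on single libraries. Leaving out seizure library 3 raised it to 3807, while leaving out wild-type library 1, 2 or 3 lowered it to 744, 697 or 681. Without seizure library 1 or 2 it was 1720 or 1404. A fit that shared its estimate of the spread with all 25 libraries called 3579 genes, of which 1603 were among the 1615.

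**Figure D1:**
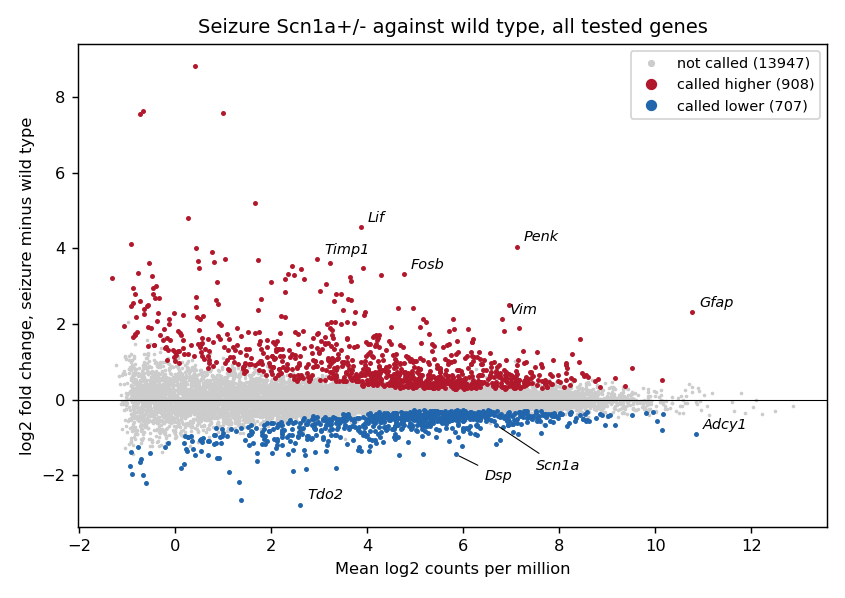
Log2 fold change of seizure Scn1a+/- over wild type (vertical axis) against mean log2 CPM (horizontal axis) for the 15562 tested genes, with the 908 called higher genes in red and the 707 called lower genes in blue. Rises reached larger sizes than falls, and Penk and Gfap stood out among abundant genes.

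Promoter sequence is shown for 6 called genes whose groups of libraries did not overlap and whose promoters hold a motif of a factor that answers neuronal activity, cytokines or the clock. Windows run from 250 bases before to 50 bases after each start in RefSeq's GRCm38.p6 annotation, the assembly of mm10, and 11692 tested genes had one or more. The motifs were searched on both strands, and every match in the stretches below is in capitals. TGANTCA is the AP-1 motif bound by Fos and Jun dimers, TTCNNNGAA the STAT motif, TGACGTCA the cAMP response element bound by CREB, and TTANGTAA the motif of the PAR bZIP factors Hlf, Tef and Dbp. Lif, Dclk1 and Srxn1 show AP-1 motifs, Socs3 a STAT motif, Scg2 a cAMP response element and a STAT motif, and Per3 a pair of PAR bZIP motifs. The first 5 genes were called higher and Per3 was called lower.
Lif, chr11:4257318-4257437, plus strand: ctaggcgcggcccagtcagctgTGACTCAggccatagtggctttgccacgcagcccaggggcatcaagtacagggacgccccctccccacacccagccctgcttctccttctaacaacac
Dclk1, chr3:55461608-55461727, plus strand: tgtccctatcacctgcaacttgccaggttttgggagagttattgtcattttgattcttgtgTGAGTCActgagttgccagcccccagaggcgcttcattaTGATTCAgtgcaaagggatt
Srxn1, chr2:152105404-152105523, plus strand: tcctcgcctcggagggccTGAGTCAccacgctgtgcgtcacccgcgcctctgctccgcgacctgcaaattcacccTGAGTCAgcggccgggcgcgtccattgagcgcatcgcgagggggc
Socs3, chr11:117969467-117969586, minus strand: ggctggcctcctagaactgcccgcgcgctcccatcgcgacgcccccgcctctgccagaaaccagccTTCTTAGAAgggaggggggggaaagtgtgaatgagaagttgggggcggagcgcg
Scg2, chr1:79440027-79440146, minus strand: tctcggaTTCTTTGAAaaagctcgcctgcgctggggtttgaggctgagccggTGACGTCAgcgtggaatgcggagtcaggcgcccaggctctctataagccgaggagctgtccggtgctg
Per3, chr4:151044796-151044915, minus strand: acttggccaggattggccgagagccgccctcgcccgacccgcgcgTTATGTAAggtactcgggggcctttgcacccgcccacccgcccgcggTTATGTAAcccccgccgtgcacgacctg

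Among the 665 called higher genes with a window, 10.8% held an AP-1 motif, against 6.31% of all tested genes with a window. The share was 5.05% among the 535 called lower genes. The serum response element, which answers calcium and growth factor signalling, was in 3.16% of higher and 1.5% of lower genes, against 1.57% of all. STAT motifs were in 9.02% of higher and 8.22% of lower genes, against 8.28% of all. The full cAMP response element was in 2.71% of higher and 1.5% of lower genes, against 3.40% of all. PAR bZIP motifs were in 2.26% of higher and 2.43% of lower genes, against 1.94% of all. These shares are descriptions, and a motif in a window is not a measured binding site.

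The largest rises were in genes of differing roles, from a peptide precursor and a cytokine to enzymes. Penk, the enkephalin precursor, had 193, 303 and 289 CPM in the seizure libraries, against 16.3, 17.1 and 14.1 CPM in wild type. Penk was thus raised 16.5-fold (log2 fold change 4.05, SE 0.18, adjusted p = 2.79e-06). Lif, the cytokine that signals through gp130, had 8.34, 59.0 and 17.3 CPM in the seizure libraries, against 1.10, 1.04 and 1.41 CPM in wild type. Seizure library 2 was far above the other two, and the 23.6-fold rise (log2 fold change 4.56, SE 0.71, adjusted p = 0.00288) was 10.8-fold without that library. Inhba, the subunit of activin A, had 16.1, 40.0 and 27.7 CPM in the seizure libraries, against 2.47, 2.25 and 2.73 CPM in wild type (log2 fold change 3.49, SE 0.31, adjusted p = 0.000125). Timp1, an inhibitor of matrix metalloproteases, had 14.5, 16.7 and 12.1 CPM in the seizure libraries, against 0.840, 1.34 and 1.09 CPM in wild type (log2 fold change 3.72, SE 0.20, adjusted p = 1.68e-05). Ptx3, a secreted pentraxin of innate immunity, had 10.4, 29.7 and 12.0 CPM in the seizure libraries, against 1.33, 1.63 and 1.23 CPM in wild type, and its 12.3-fold rise (log2 fold change 3.62, SE 0.42, adjusted p = 0.000576) was 7.96-fold without seizure library 2. In each of these 5 genes the lowest seizure library was above the highest wild-type library, which their selection required.

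Other rises were of similar size. Serpinf2, the antiplasmin gene, had 8.39, 13.6 and 7.97 CPM in the seizure libraries, against 0.574, 0.751 and 1.23 CPM in wild type. Wisp1, a matricellular protein, was nearly equal in the 3 seizure libraries, with 11.2, 10.5 and 12.4 CPM in the seizure libraries, against 0.795, 1.42 and 0.864 CPM in wild type. Aldh1a3, an enzyme that makes retinoic acid, had 4.73, 7.22 and 6.47 CPM in the seizure libraries, against 0.619, 0.417 and 0.364 CPM in wild type. Dgat2l6, of the diacylglycerol acyltransferase family, was raised 13.2-fold. Log2 fold changes of these 4 genes ran between 3.45 and 3.73 with adjusted p between 2.83e-05 and 0.000203. Ifi202b, of a family of near-identical interferon-induced genes whose reads can be split between copies, had the largest of the 12 rises, with 4.73, 10.9 and 2.95 CPM in the seizure libraries, against 0.133, 0.292 and 0.0455 CPM in wild type. Its value is uncertain for that reason, and the 37.1-fold rise became 64.5-fold without wild-type library 2.

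The largest falls were mostly in genes of low abundance, and 4 of the 12 were on the dentate granule cell list. That list as a whole had a median log2 fold change of 0.0085, with 3 of 20 called higher, 6 lower and 11 not called. Its summed level was 1758, 1757 and 2346 CPM in the seizure libraries, against 1754, 1645 and 1671 CPM in wild type. Tdo2, the tryptophan dioxygenase that marks mature granule cells, had 2.72, 0.606 and 1.06 CPM in the seizure libraries, against 11.7, 10.1 and 9.28 CPM in wild type (log2 fold change -2.79, SE 0.35, adjusted p = 0.000902). Without seizure library 1, which kept the most, its level in seizure libraries was 0.0811 times wild type. Dsp, the desmosomal protein desmoplakin, also typical of granule cells, had 38.7, 20.2 and 33.0 CPM in the seizure libraries, against 85.6, 78.8 and 87.7 CPM in wild type (log2 fold change -1.45, SE 0.19, adjusted p = 0.000975). Plekhd1, on the granule cell list too, had 2.28, 2.62 and 1.88 CPM in the seizure libraries, against 9.72, 7.43 and 8.05 CPM in wild type. Ntf3, the neurotrophin-3 gene and a member of the CA2 and CA3 list, had 5.31, 1.51 and 3.14 CPM in the seizure libraries, against 9.85, 9.23 and 8.91 CPM in wild type and passed in 5 of the 6 fits that left out 1 library each (highest adjusted p = 0.0564, without wild-type library 1).

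Further falls were of similar size. Otof, the calcium sensor otoferlin, had 2.41, 2.27 and 3.72 CPM in the seizure libraries, against 9.10, 10.0 and 11.1 CPM in wild type. Fam160a1 had 4.69, 4.79 and 3.96 CPM in the seizure libraries, against 15.6, 15.4 and 16.1 CPM in wild type (log2 fold change -1.81, SE 0.12, adjusted p = 3.84e-05). Lct, the lactase gene and a granule cell marker, had 26.8, 9.39 and 21.4 CPM in the seizure libraries, against 54.1, 53.6 and 49.3 CPM in wild type. Zcchc5, Nek10, Rtp1, Tekt5 and Abca8a completed the 12 largest falls, with log2 fold changes between -2.66 and -1.41. The groups did not overlap in any of the 12, because only genes without overlap were eligible.

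**Figure D2:**
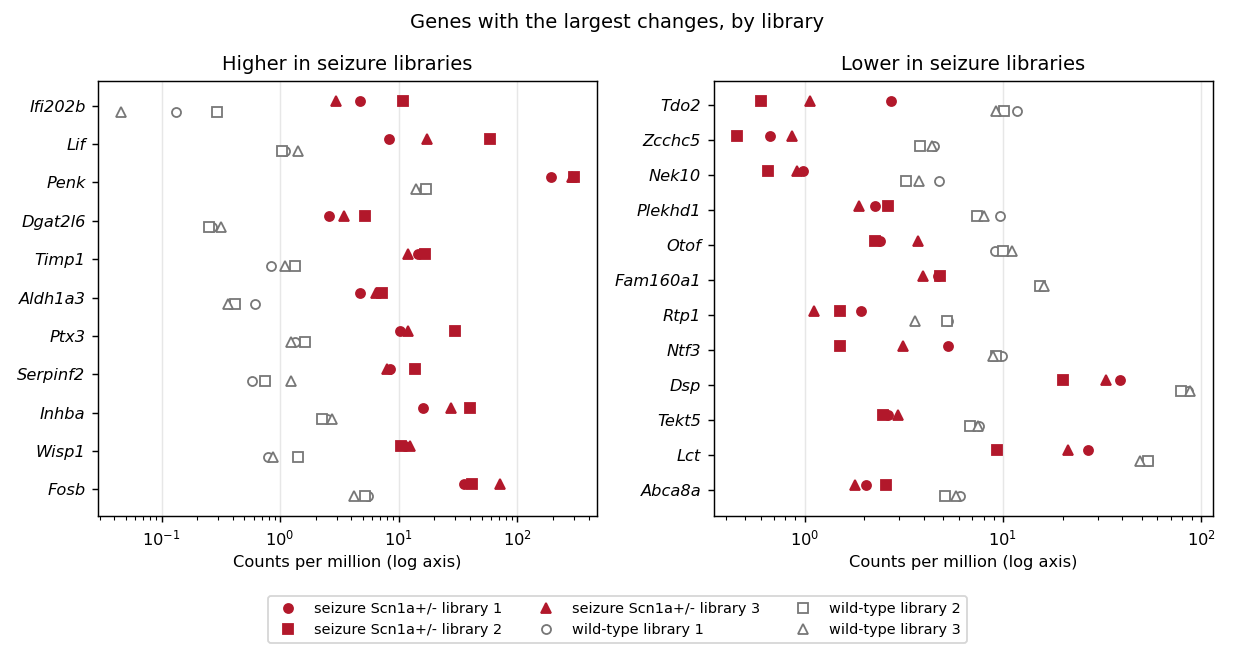
CPM by library (log axis) for 11 of the 12 largest rises (left) and the 12 largest falls (right) among called genes, with filled red symbols for the seizure libraries and open grey symbols for wild type. Only genes without overlap were eligible, so in every row the 3 seizure libraries lie on one side of the 3 wild-type libraries. Lif spans 8.34 to 59.0 CPM within the seizure group.

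In CPM the largest gains were in abundant genes. Gfap, the intermediate filament of astrocytes, had 3344, 3007 and 2337 CPM in the seizure libraries, against 542, 619 and 585 CPM in wild type (4.97-fold; log2 fold change 2.31, SE 0.14, adjusted p = 2.83e-05). Trak2, which links mitochondria to kinesin, had 1102, 987 and 726 CPM in the seizure libraries, against 489, 541 and 552 CPM in wild type. Dclk1, a microtubule-associated kinase with a pair of AP-1 motifs in the promoter shown above, had 1216, 1420.3 and 1387 CPM in the seizure libraries, against 949.6, 926 and 917 CPM in wild type and passed in 3 of the 6 fits that left out 1 library each (highest adjusted p = 0.0681, without wild-type library 3). Rgs4, which turns off G-protein signals, had 421, 598 and 557 CPM in the seizure libraries, against 168, 179 and 167 CPM in wild type (log2 fold change 1.62, SE 0.13, adjusted p = 6.54e-05). On the losing side, Adcy1, the calcium-stimulated adenylyl cyclase, had 1296, 1328 and 1173 CPM in the seizure libraries, against 2287, 2512 and 2411 CPM in wild type (log2 fold change -0.93, SE 0.10, adjusted p = 0.000427). Miat, a long noncoding RNA, had 892, 851 and 738 CPM in the seizure libraries, against 1282, 1495 and 1546 CPM in wild type. Glul, glutamine synthetase of astrocytes, had 904, 842 and 787 CPM in the seizure libraries, against 1223, 1336 and 1219 CPM in wild type. Jph4, a junctophilin that ties the endoplasmic reticulum to the plasma membrane, had 462, 432 and 437 CPM in the seizure libraries, against 687, 732 and 694 CPM in wild type. The groups did not overlap in these 8 genes.

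The factors at the top of the activity response were raised unevenly. Of 10 tested AP-1 factors 7 were called higher and 0 lower, with a median log2 fold change of 1.72. Fosb, whose product accumulates with repeated activity, had 35.4, 41.1 and 71.8 CPM in the seizure libraries, against 5.48, 5.18 and 4.23 CPM in wild type (log2 fold change 3.31, SE 0.26, adjusted p = 6.18e-05). Fos had 62.2, 36.4 and 59.2 CPM in the seizure libraries, against 10.7, 9.73 and 8.96 CPM in wild type (log2 fold change 2.43, SE 0.19, adjusted p = 6.18e-05), with seizure library 2 lowest. Junb had 78.4, 58.9 and 105 CPM in the seizure libraries, against 38.4, 33.3 and 32.8 CPM in wild type, and Fosl2 had 82.7, 162 and 153 CPM in the seizure libraries, against 57.1, 59.8 and 53.4 CPM in wild type. Batf3, a small AP-1 partner, had 1.92, 3.38 and 1.88 CPM in the seizure libraries, against 0.530, 0.376 and 0.637 CPM in wild type. The other 3 tested members, Jun (log2 fold change 0.44, SE 0.14, adjusted p = 0.0653), Jund and Mafk, were not called.

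Of 23 other activity-induced transcription factors 9 were called higher and 0 lower (median log2 fold change 0.50). Ier5 had 73.2, 114 and 136 CPM in the seizure libraries, against 40.3, 36.8 and 35.7 CPM in wild type (log2 fold change 1.52, SE 0.19, adjusted p = 0.000786), and Klf10 had 41.6, 62.8 and 74.3 CPM in the seizure libraries, against 22.5, 20.8 and 21.6 CPM in wild type. Sox11, better known for immature neurons, had 83.4, 127 and 96.5 CPM in the seizure libraries, against 43.6, 47.0 and 49.5 CPM in wild type (log2 fold change 1.13, SE 0.14, adjusted p = 0.000815). Npas4, which neurons switch on after calcium influx, had 60.7, 16.7 and 34.0 CPM in the seizure libraries, against 12.2, 13.7 and 15.4 CPM in wild type. Its second seizure library was barely above wild type, and it passed in 2 of the 6 fits that left out 1 library each (highest adjusted p = 0.111, without wild-type library 1). Egr3 had 109, 266 and 271 CPM in the seizure libraries, against 94.1, 85.5 and 85.5 CPM in wild type, with seizure library 1 near wild type, and passed in 3 of the 6 fits that left out 1 library each (highest adjusted p = 0.0621, without wild-type library 3). Ier2, a small immediate early gene, had 13.6, 9.24 and 14.2 CPM in the seizure libraries, against 6.14, 5.84 and 6.19 CPM in wild type. A pair of widely used activity genes, named after their values were seen, did not pass: Egr1 had a log2 fold change of 0.59 (adjusted p = 0.153) and Nr4a1 of 0.23 (adjusted p = 0.509).

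Effectors and feedback regulators of activity were called higher for 15 of 27 genes and lower for 0, with a median log2 fold change of 0.73. Rgs2, another brake on G-protein signals, had 90.2, 129 and 113 CPM in the seizure libraries, against 37.4, 35.7 and 36.4 CPM in wild type (log2 fold change 1.60, SE 0.12, adjusted p = 5.72e-05). Ptgs2, the cyclooxygenase COX-2, had 54.8, 80.2 and 107 CPM in the seizure libraries, against 25.4, 21.0 and 22.8 CPM in wild type (log2 fold change 1.81, SE 0.20, adjusted p = 0.000489). Gadd45b and Gadd45g, stress and DNA demethylation factors, were raised 3.20-fold and 2.01-fold. The list was not raised to the same degree in every pool. Its median log2(CPM + 1) over the wild-type mean was 0.19, 0.82 and 0.82 in seizure libraries 1, 2 and 3.

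Among 26 tested neuropeptide and granin precursors 8 were called higher and 1 lower, and the median log2 fold change of 0.06 was near that of all genes, 0.01. Npy, neuropeptide Y, had 92.5, 113 and 118 CPM in the seizure libraries, against 33.1, 26.1 and 28.8 CPM in wild type (log2 fold change 1.88, SE 0.12, adjusted p = 3.4e-05). Gal, the galanin precursor, had 14.4, 7.17 and 13.2 CPM in the seizure libraries, against 1.41, 1.04 and 1.32 CPM in wild type (log2 fold change 3.20, SE 0.28, adjusted p = 0.000123). Grp, gastrin-releasing peptide, had 45.6, 33.9 and 40.5 CPM in the seizure libraries, against 19.6, 18.0 and 21.5 CPM in wild type. Scg2, the granin secretogranin II whose promoter with a cAMP response element is shown above, had 261, 300.4 and 389.8 CPM in the seizure libraries, against 166, 153 and 140.1 CPM in wild type (log2 fold change 1.05, SE 0.14, adjusted p = 0.00127). Pdyn, the dynorphin precursor of granule cells, had 4.28, 8.38 and 8.46 CPM in the seizure libraries, against 11.5, 12.1 and 12.3 CPM in wild type and passed in 3 of the 6 fits that left out 1 library each (highest adjusted p = 0.15, without wild-type library 3).

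Growth factor genes were called in both directions, with 3 of 26 higher and 3 lower, while 20 were not called. That was 11.5% each way, against 5.83% higher and 4.54% lower over all tested genes. Bdnf had 114, 249 and 173 CPM in the seizure libraries, against 55.0, 47.3 and 51.3 CPM in wild type (log2 fold change 1.80, SE 0.23, adjusted p = 0.000904). Hbegf, an epidermal growth factor receptor ligand, had 21.3, 50.3 and 28.4 CPM in the seizure libraries, against 11.7, 12.9 and 11.4 CPM in wild type. Tgfa, another ligand of that receptor, had 55.6, 48.6 and 49.8 CPM in the seizure libraries, against 67.7, 66.0 and 66.2 CPM in wild type and passed in 3 of the 6 fits that left out 1 library each (highest adjusted p = 0.0888, without wild-type library 1). Of 26 receptors 5 were called higher and 3 lower. Besides the activin subunit Inhba above, Acvr1c and Acvr1, type I receptor genes of the activin receptor family, rose 4.41-fold and 2.03-fold. The type II receptor gene Acvr2a had 62.1, 53.9 and 61.2 CPM in the seizure libraries, against 88.0, 94.3 and 99.7 CPM in wild type (log2 fold change -0.67, SE 0.09, adjusted p = 0.00127). Acvr1c had 67.2, 109 and 93.3 CPM in the seizure libraries, against 21.3, 20.2 and 19.6 CPM in wild type (log2 fold change 2.14, SE 0.16, adjusted p = 4.52e-05). Ret, the signalling receptor for glial-derived factors, had 8.52, 12.7 and 17.1 CPM in the seizure libraries, against 4.77, 4.80 and 4.18 CPM in wild type, and its partner Gfra2 had 11.9, 16.9 and 17.9 CPM in the seizure libraries, against 32.8, 33.1 and 29.8 CPM in wild type.

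In LIF, gp130 and STAT3 signalling 6 of 19 tested genes were called higher and 1 lower. Beside Lif, a second ligand of the family, Clcf1, had 5.98, 8.08 and 3.82 CPM in the seizure libraries, against 0.972, 0.877 and 0.955 CPM in wild type (log2 fold change 2.66, SE 0.29, adjusted p = 0.000438). Stat3 itself had 76.5, 102 and 106 CPM in the seizure libraries, against 49.0, 49.2 and 48.8 CPM in wild type (log2 fold change 0.95, SE 0.12, adjusted p = 0.000831). Socs3, the inhibitor that STAT3 switches on, had 8.66, 27.8 and 11.0 CPM in the seizure libraries, against 2.34, 1.29 and 2.05 CPM in wild type, and its 8.33-fold rise (log2 fold change 3.06, SE 0.44, adjusted p = 0.00186) was 5.20-fold without seizure library 2. Bcl3, a nuclear partner of NF-kappa-B, had 2.28, 5.05 and 2.13 CPM in the seizure libraries, against 0.221, 0.209 and 0.182 CPM in wild type. The receptor subunit genes Lifr and Il6st, which encodes gp130, both named after their values were seen, were not called, with log2 fold changes of 0.04 and 0.07. Lif and Socs3 were both highest in seizure library 2 and lowest in seizure library 1.

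Pentraxins and synaptic organisers were called higher for 2 of 21 genes (9.52%) and lower for 1 (4.76%). The shares over all tested genes were 5.83% and 4.54%. Nptx2, or Narp, which clusters AMPA receptors on interneurons, had 97.3, 242 and 296 CPM in the seizure libraries, against 41.6, 37.2 and 33.2 CPM in wild type (log2 fold change 2.50, SE 0.32, adjusted p = 0.00103). Among 26 matrix proteases and inhibitors 7 were called higher and 2 lower, including Serpina3n, a secreted serpin of reactive astrocytes, with 269.6, 225 and 288 CPM in the seizure libraries, against 115, 104 and 106 CPM in wild type (log2 fold change 1.27, SE 0.11, adjusted p = 9.53e-05). Serpinf1 had 22.8, 24.1 and 27.1 CPM in the seizure libraries, against 12.4, 13.6 and 13.8 CPM in wild type. Of 25 perineuronal net and related matrix genes 7 were called higher and 1 lower. Cd44, the hyaluronan receptor, had 26.4, 49.3 and 30.8 CPM in the seizure libraries, against 3.76, 3.38 and 3.73 CPM in wild type (log2 fold change 3.29, SE 0.23, adjusted p = 3.95e-05), and Tnc, tenascin C, had 40.1, 41.2 and 36.4 CPM in the seizure libraries, against 17.3, 19.5 and 18.0 CPM in wild type (log2 fold change 1.10, SE 0.09, adjusted p = 9.53e-05). Has2, a hyaluronan synthase, and Sdc1, a syndecan, were raised 3.73-fold and 7.14-fold. Bcan, which encodes brevican of the net itself, had 241, 267 and 270.3 CPM in the seizure libraries, against 377, 393 and 378 CPM in wild type (log2 fold change -0.56, SE 0.09, adjusted p = 0.00293).

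Genes of reactive astrocytes were called higher for 19 of 34 and lower for 1, with a median log2 fold change of 0.95. Vim, vimentin, had 183, 196 and 170.1 CPM in the seizure libraries, against 43.7, 42.8 and 39.8 CPM in wild type (log2 fold change 2.12, SE 0.09, adjusted p = 2.79e-06). S1pr3, a receptor for sphingosine 1-phosphate, had 31.1, 53.1 and 41.6 CPM in the seizure libraries, against 7.25, 7.89 and 8.28 CPM in wild type (log2 fold change 2.42, SE 0.18, adjusted p = 5e-05). Homeostatic astrocyte genes moved both ways, with 4 of 25 called higher and 5 lower. The water channel gene Aqp4 had 377, 412 and 342 CPM in the seizure libraries, against 187, 191 and 196 CPM in wild type (log2 fold change 0.98, SE 0.09, adjusted p = 0.000203), and Kcnj10, the potassium channel Kir4.1, had 432, 485 and 409 CPM in the seizure libraries, against 280.1, 308 and 276 CPM in wild type. Gjb6, connexin 30, had 58.8, 62.2 and 58.9 CPM in the seizure libraries, against 79.9, 92.6 and 86.7 CPM in wild type (log2 fold change -0.53, SE 0.08, adjusted p = 0.00337).

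Complement and phagocytic microglia genes were called higher for 12 of 24 and lower for 0 (median log2 fold change 0.54). Gpnmb, a lysosomal glycoprotein, had 24.4, 17.6 and 23.0 CPM in the seizure libraries, against 2.70, 4.34 and 3.41 CPM in wild type (log2 fold change 2.63, SE 0.19, adjusted p = 3.99e-05). C4b of the complement cascade had 37.2, 42.2 and 39.9 CPM in the seizure libraries, against 17.4, 18.5 and 18.4 CPM in wild type (log2 fold change 1.14, SE 0.09, adjusted p = 6.18e-05), and the tetraspanin gene Cd9 had 96.2, 109 and 92.6 CPM in the seizure libraries, against 50.5, 50.7 and 45.3 CPM in wild type. Msr1, a scavenger receptor, was near 0 in wild type, and its 8.08-fold rise became 13.4-fold without wild-type library 3. Homeostatic microglia genes were called for 1 of 22 in each direction, or 4.55%, near the shares over all tested genes. Olfml3 had 19.8, 21.4 and 16.6 CPM in the seizure libraries, against 10.9, 11.1 and 10.7 CPM in wild type, and Mertk, a receptor for dying cells, had 33.2, 44.2 and 32.3 CPM in the seizure libraries, against 50.2, 58.4 and 55.4 CPM in wild type and passed in 4 of the 6 fits that left out 1 library each (highest adjusted p = 0.0784, without wild-type library 2).

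Of 23 tested cytokine and chemokine genes 8 were called higher and 3 lower. Tnfrsf12a, the TWEAK receptor, had 13.2, 28.9 and 14.9 CPM in the seizure libraries, against 3.58, 3.13 and 4.23 CPM in wild type (log2 fold change 2.38, SE 0.29, adjusted p = 0.000755). Ccl12, a chemokine for monocytes, had 1.92, 4.09 and 1.55 CPM in the seizure libraries, against 0.0884, 0.292 and 0.273 CPM in wild type. Cxcl12, made by neurons, endothelium and meninges, had 47.4, 44.0 and 47.4 CPM in the seizure libraries, against 79.6, 81.2 and 85.2 CPM in wild type (log2 fold change -0.83, SE 0.08, adjusted p = 0.000194). Interferon-induced genes were called higher for 5 of 28 and lower for 0. Ifitm3 had 10.6, 11.4 and 8.36 CPM in the seizure libraries, against 4.68, 3.97 and 4.23 CPM in wild type, and Gbp3 had 6.92, 8.48 and 6.67 CPM in the seizure libraries, against 4.42, 3.76 and 4.09 CPM in wild type.

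Cholesterol synthesis was the metabolic list with the largest share of calls, with 16 of 25 genes higher and 0 lower. Its median rise was alike in the pools, at 0.42, 0.51 and 0.45 log2 units over the wild-type mean in seizure libraries 1, 2 and 3. Sqle, squalene epoxidase, had 107, 121 and 128 CPM in the seizure libraries, against 72.2, 71.7 and 72.5 CPM in wild type (log2 fold change 0.72, SE 0.09, adjusted p = 0.000815). Hmgcs1, which makes the precursor of mevalonate, had 443, 466 and 495 CPM in the seizure libraries, against 324, 311 and 294 CPM in wild type (log2 fold change 0.60, SE 0.09, adjusted p = 0.00246). Msmo1, Fdft1 and Stard4 were raised 1.64-fold, 1.57-fold and 1.56-fold. Glycolysis and lactate transport genes were called higher for 4 of 24 (16.7%) and lower for 1 (4.17%), against 5.83% and 4.54% over all tested genes. Ldha had 164, 151 and 195 CPM in the seizure libraries, against 128, 116 and 112 CPM in wild type and passed in 4 of the 6 fits that left out 1 library each (highest adjusted p = 0.0904, without wild-type library 3), while Ldhb, the other lactate dehydrogenase subunit, had 96.1, 91.8 and 101 CPM in the seizure libraries, against 136, 142 and 129 CPM in wild type (log2 fold change -0.49, SE 0.08, adjusted p = 0.00448).

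Called stress genes were mostly higher. In the heat shock and unfolded protein list 10 of 34 were called higher and 0 lower. Hspb1, a small heat shock protein, had 6.29, 4.64 and 5.41 CPM in the seizure libraries, against 0.884, 1.29 and 0.955 CPM in wild type (log2 fold change 2.37, SE 0.22, adjusted p = 0.00015). Bag3, a co-chaperone, had 12.7, 24.8 and 23.2 CPM in the seizure libraries, against 8.09, 7.56 and 7.14 CPM in wild type. Of 24 oxidative stress genes 3 (12.5%) were called higher and 1 (4.17%) lower, against 5.83% and 4.54% over all tested genes. Srxn1, sulfiredoxin, with a pair of AP-1 motifs in the promoter shown above, had 146, 224 and 170.1 CPM in the seizure libraries, against 101, 91.9 and 96.3 CPM in wild type (log2 fold change 0.90, SE 0.14, adjusted p = 0.00289). Txnip, which inhibits thioredoxin, had 18.1, 16.4 and 12.9 CPM in the seizure libraries, against 26.0, 27.5 and 24.7 CPM in wild type (log2 fold change -0.72, SE 0.13, adjusted p = 0.00531). Hmox1, heme oxygenase, had 6.69, 9.89 and 11.1 CPM in the seizure libraries, against 3.54, 3.80 and 3.32 CPM in wild type. In the p53 list 3 of 19 were called higher and 0 lower, led by Cdkn1a with 17.8, 30.7 and 31.6 CPM in the seizure libraries, against 8.84, 10.2 and 10.1 CPM in wild type (log2 fold change 1.46, SE 0.20, adjusted p = 0.00134).

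Called sodium and potassium channel genes were mostly lower. Of 11 tested sodium channel subunit genes 5 were called lower and 0 higher (median log2 fold change -0.33). The 5 include the targeted gene Scn1a itself and its chromosomal neighbour Scn9a. Of the 5, only Scn1a and Scn4b passed in all 6 fits that left out 1 library each. Scn4b, which lets channels of fast-firing neurons reopen quickly, had 6.07, 8.13 and 10.4 CPM in the seizure libraries, against 22.3, 22.2 and 18.1 CPM in wild type (log2 fold change -1.35, SE 0.18, adjusted p = 0.00107). Scn3b had 274, 184 and 241 CPM in the seizure libraries, against 353, 361 and 354 CPM in wild type and passed in 3 of the 6 fits that left out 1 library each (highest adjusted p = 0.0701, without wild-type library 2). Scn2b had 166, 133 and 179 CPM in the seizure libraries, against 223, 222 and 209 CPM in wild type and passed in 2 of the 6 fits that left out 1 library each (highest adjusted p = 0.129, without wild-type library 2).

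Of 57 potassium and HCN channel genes 12 were called lower and 4 higher. Kcnip2, an accessory subunit of A-type channels, had 173, 145 and 164 CPM in the seizure libraries, against 264, 259 and 249 CPM in wild type (log2 fold change -0.68, SE 0.09, adjusted p = 0.00134), while Kcnip3, its relative known as DREAM, had 144, 216 and 210.3 CPM in the seizure libraries, against 89.0, 96.2 and 89.1 CPM in wild type (log2 fold change 1.06, SE 0.14, adjusted p = 0.00124). Kcnq3, a subunit of the M-current channel, had 48.0, 44.8 and 52.8 CPM in the seizure libraries, against 68.3, 72.2 and 69.4 CPM in wild type, and Kcnh7 had 11.6, 11.5 and 15.5 CPM in the seizure libraries, against 23.9, 24.1 and 24.5 CPM in wild type. Calcium channel genes were called higher for 2 of 22 (9.09%) and lower for 1 (4.55%), against 5.83% and 4.54% over all tested genes. The T-type channel gene Cacna1g had 194, 215 and 223 CPM in the seizure libraries, against 103, 112 and 106 CPM in wild type (log2 fold change 0.98, SE 0.09, adjusted p = 0.000144). Cacna2d2, the subunit bound by gabapentin, had 63.8, 70.6 and 96.5 CPM in the seizure libraries, against 28.1, 29.1 and 26.5 CPM in wild type (log2 fold change 1.46, SE 0.14, adjusted p = 0.000203). Calcium buffers and kinases were called lower for 7 of 35 and higher for 2, led by Camkk2 with 85.5, 106 and 98.7 CPM in the seizure libraries, against 183, 185 and 182 CPM in wild type (log2 fold change -0.93, SE 0.10, adjusted p = 0.000298). Camk4, a nuclear calmodulin kinase, had 148, 148 and 173 CPM in the seizure libraries, against 236, 236 and 227 CPM in wild type, and Calb2, calretinin, had 65.4, 51.8 and 64.3 CPM in the seizure libraries, against 41.7, 34.0 and 38.8 CPM in wild type.

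Inhibitory and excitatory receptor genes were called lower where they were called at all. Of 24 genes for GABA receptors, synthesis and transport 4 were lower. Gabrd, the delta subunit of extrasynaptic receptors on granule cells, had 9.86, 8.18 and 11.5 CPM in the seizure libraries, against 24.7, 21.5 and 22.8 CPM in wild type (log2 fold change -1.22, SE 0.13, adjusted p = 0.000394). Slc6a11, the astrocytic GABA transporter GAT-3, had 74.3, 109 and 107 CPM in the seizure libraries, against 141, 153 and 138 CPM in wild type and passed in 3 of the 6 fits that left out 1 library each (highest adjusted p = 0.105, without wild-type library 2). Of 28 glutamate receptor and transporter genes 4 were called lower. The kainate and AMPA receptor genes Grik3, Gria3 and Gria2 and the vesicular transporter gene Slc17a6 had log2 fold changes of -0.54, -0.36, -0.34 and -0.40. None was robust to leaving out a library. Grik3, Gria3 and Gria2 passed in 1 of 6 such fits and Slc17a6 in 2, with the highest adjusted p at 0.209 for Slc17a6 without wild-type library 2. In these 2 lists the median was below wild type in seizure libraries 1 and 2, at -0.18 and -0.35 log2 units for GABA genes and -0.25 and -0.26 for glutamate genes. In seizure library 3 both medians were 0.03.

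Receptors for amines, acetylcholine, adenosine and cannabinoids were called higher for 4 of 36 (11.1%) and lower for 3 (8.33%). The shares over all tested genes were 5.83% and 4.54%. Drd1, the D1 dopamine receptor, had 17.6, 24.4 and 21.3 CPM in the seizure libraries, against 5.35, 5.51 and 4.68 CPM in wild type (log2 fold change 2.02, SE 0.15, adjusted p = 4.37e-05), and Adra2c, an alpha-2 adrenergic receptor, had 70.9, 77.0 and 77.8 CPM in the seizure libraries, against 37.0, 39.4 and 35.7 CPM in wild type (log2 fold change 1.01, SE 0.08, adjusted p = 7.89e-05). Neuropeptide receptors were called lower for 6 of 24 and higher for 2. Tacr1, the substance P receptor, had 5.27, 5.91 and 7.54 CPM in the seizure libraries, against 2.56, 2.05 and 2.82 CPM in wild type, and Sstr2, a somatostatin receptor, had 25.4, 49.0 and 42.7 CPM in the seizure libraries, against 15.9, 12.9 and 15.6 CPM in wild type. Npy2r, a presynaptic receptor for neuropeptide Y, had 24.6, 10.2 and 19.4 CPM in the seizure libraries, against 46.1, 33.9 and 38.4 CPM in wild type and passed in 4 of the 6 fits that left out 1 library each (highest adjusted p = 0.0772, without wild-type library 1). Synaptic vesicle genes were called lower for 3 of 30 (10%) and higher for 1 (3.33%), against 4.54% and 5.83% over all tested genes. Sv2c had 19.0, 22.8 and 31.5 CPM in the seizure libraries, against 9.10, 8.43 and 9.01 CPM in wild type (log2 fold change 1.46, SE 0.17, adjusted p = 0.000634), and Doc2b, a calcium sensor for spontaneous release, had 92.5, 75.0 and 89.2 CPM in the seizure libraries, against 139, 148 and 141 CPM in wild type (log2 fold change -0.74, SE 0.10, adjusted p = 0.00106).

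Called genes of the clock and glucocorticoid lists were mostly lower. Of 20 circadian genes 5 were called lower and 1 higher. Hlf, a PAR bZIP factor and a candidate modifier of the Dravet phenotype in mice, had 65.4, 57.3 and 67.0 CPM in the seizure libraries, against 141, 149 and 139 CPM in wild type (log2 fold change -1.18, SE 0.09, adjusted p = 5.41e-05). Tef, of the same family, had 387, 352 and 349 CPM in the seizure libraries, against 493, 519.6 and 503 CPM in wild type and passed in 4 of the 6 fits that left out 1 library each (highest adjusted p = 0.064, without wild-type library 2). Per3, whose promoter with a pair of PAR bZIP motifs is shown above, had 67.7, 49.97 and 60.8 CPM in the seizure libraries, against 89.0, 99.8 and 101 CPM in wild type (log2 fold change -0.70, SE 0.11, adjusted p = 0.00374). Bhlhe41, a repressor of the clock, had 93.4, 127 and 122 CPM in the seizure libraries, against 48.1, 49.0 and 45.6 CPM in wild type (log2 fold change 1.26, SE 0.12, adjusted p = 0.00016). In a list of 15 tested candidate modifiers 1 was called higher, Cacna1g, and 1 lower, Hlf. That is 6.67% each way, near the 5.83% higher and 4.54% lower over all tested genes. Of 25 glucocorticoid-responsive genes 9 were called lower and 1 higher. Sult1a1, a sulfotransferase, had 6.92, 7.97 and 6.86 CPM in the seizure libraries, against 15.2, 17.6 and 16.1 CPM in wild type, Klf15 had 22.0, 22.8 and 21.4 CPM in the seizure libraries, against 36.8, 39.7 and 38.0 CPM in wild type, and Tsc22d3, also known as GILZ, had 54.3, 46.5 and 47.4 CPM in the seizure libraries, against 81.0, 89.3 and 81.4 CPM in wild type. Hif3a had 18.2, 15.2 and 16.3 CPM in the seizure libraries, against 29.0, 34.4 and 30.3 CPM in wild type (log2 fold change -0.92, SE 0.11, adjusted p = 0.000596).

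Markers of hippocampal cell types moved in part. Granule cell markers of the dentate gyrus were called lower for 6 of 20 and higher for 3. Besides the lower Tdo2, Dsp and Plekhd1, the higher ones included Pcdh8, an activity-induced protocadherin, with 125, 246 and 304 CPM in the seizure libraries, against 69.0, 56.3 and 56.4 CPM in wild type, and Gsg1l with 47.0, 95.0 and 81.9 CPM in the seizure libraries, against 32.7, 34.6 and 31.2 CPM in wild type. CA1 markers were called lower for 3 of 15 and higher for 0, with Fibcd1 at 66.8, 53.3 and 90.5 CPM in the seizure libraries, against 164, 154 and 122 CPM in wild type (log2 fold change -1.06, SE 0.18, adjusted p = 0.00426). CA2 and CA3 markers were called for 1 of 19, the lower Ntf3, or 5.26%, near the share of lower genes over all tested genes. Interneuron markers were called higher for 2 of 30, Npy and Calb2, and lower for 1, Lamp5. These were 6.67% and 3.33% of the list, near the shares over all tested genes. Lamp5 had 15.6, 12.6 and 19.2 CPM in the seizure libraries, against 32.7, 31.9 and 29.1 CPM in wild type. Immature neuron genes were called higher for 8 of 21 and lower for 0. Igfbpl1, which marks newborn granule cells, had 36.1, 30.9 and 30.0 CPM in the seizure libraries, against 15.1, 14.6 and 17.8 CPM in wild type (log2 fold change 1.03, SE 0.11, adjusted p = 0.000438), and Tubb2b had 229, 173 and 208 CPM in the seizure libraries, against 103, 99.6 and 108 CPM in wild type (log2 fold change 0.98, SE 0.11, adjusted p = 0.000475). Mitotic genes were called for 1 of 26 in each direction, or 3.85%, below the shares over all tested genes. Top2a had 4.37, 3.33 and 5.70 CPM in the seizure libraries, against 2.65, 2.42 and 1.55 CPM in wild type. It passed in 2 of the 6 fits that left out 1 library each (highest adjusted p = 0.126, without wild-type library 3).

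Myelin genes were called lower for 4 of 29 and higher for 0, with Ndrg1 at 45.3, 58.0 and 54.1 CPM in the seizure libraries, against 81.0, 79.6 and 69.7 CPM in wild type and passing in 4 of the 6 fits that left out 1 library each (highest adjusted p = 0.0564, without wild-type library 1). Of 20 oligodendrocyte precursor genes 0 were called by edgeR, with 5 at an unadjusted p under 0.05, and 1 by DESeq2 and 0 by limma. Sox8 came nearest, at adjusted p = 0.0562. Endothelial and pericyte markers were called for 1 of 26 in each direction, or 3.85%, below the shares over all tested genes.

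Markers of tissue beside the hippocampus were measured as well. Choroid plexus and ependymal markers were called higher for 1 of 20, or 5%, near the share over all tested genes. This was Prlr, the prolactin receptor, with 26.5, 46.2 and 28.9 CPM in the seizure libraries, against 12.5, 15.9 and 15.3 CPM in wild type. The summed level of the list was 728, 1357 and 688 CPM in the seizure libraries, against 997, 1047 and 1084 CPM in wild type, so seizure library 2 stood above and the other seizure libraries below all wild-type libraries. Leptomeningeal and fibroblast markers were called higher for 4 of 21 and lower for 4, with a summed level of 616, 582 and 623 CPM in the seizure libraries, against 659, 628 and 638 CPM in wild type. Col3a1, a fibrillar collagen, had 19.5, 19.5 and 18.3 CPM in the seizure libraries, against 7.47, 6.39 and 8.10 CPM in wild type (log2 fold change 1.39, SE 0.12, adjusted p = 0.000103), and Fmod and Ogn, both matrix proteoglycans, were at 0.393 and 0.514 times the wild-type level. Striatal markers were called higher for 2 of 14, Penk and Drd1, and lower for 2, Pdyn among them. The striatal sum of 484, 622 and 625 CPM in the seizure libraries, against 336, 333 and 314 CPM in wild type, includes Penk. Neocortical markers were called lower for 5 of 20 and higher for 1, with sums of 848, 795 and 938 CPM in the seizure libraries, against 965, 946 and 921 CPM in wild type. Rprm, the higher one, had 93.8, 76.7 and 93.5 CPM in the seizure libraries, against 28.1, 22.5 and 21.4 CPM in wild type (log2 fold change 1.87, SE 0.12, adjusted p = 3.4e-05), and Rasgrf2 had 58.4, 42.7 and 59.1 CPM in the seizure libraries, against 106, 102 and 100.4 CPM in wild type (log2 fold change -0.94, SE 0.12, adjusted p = 0.000944). Thalamic and habenular markers were called lower for 4 of 18 and higher for 2. Their summed level was nonetheless higher in every seizure library, at 752, 800 and 779 CPM, against 673, 733 and 696 CPM in wild type. Of 13 blood cell genes 12 did not pass the low-count filter and the other, Alas2, was not called. The part of neighbouring tissue in these results was not tested. In the sex-specific list 1 of 6 genes was called lower, Eif2s3y on the Y chromosome, with 30.7, 25.5 and 26.9 CPM in the seizure libraries, against 35.0, 36.9 and 36.5 CPM in wild type, passing in 2 of the 6 fits that left out 1 library each (highest adjusted p = 0.138, without wild-type library 2).

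**Figure D3:**
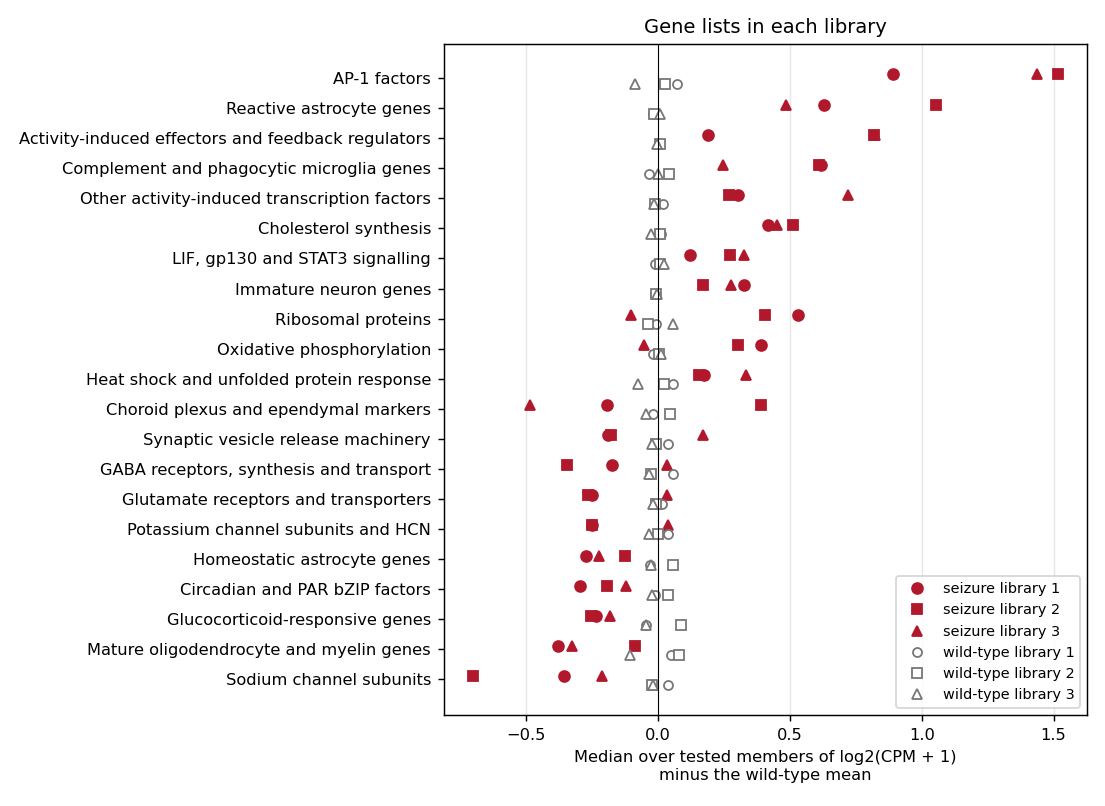
Median over the tested members of 21 gene lists of log2(CPM + 1) minus the wild-type mean (horizontal axis), 1 filled red symbol per seizure library and 1 open grey symbol per wild-type library. AP-1, reactive astrocyte and cholesterol lists lie above wild type in all 3 seizure libraries. In some lists seizure library 3 lies on the other side of the wild-type mean from seizure libraries 1 and 2. These are the ribosomal protein, oxidative phosphorylation, synaptic vesicle, potassium channel, GABA and glutamate lists.

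The 3 seizure pools differed from one another more than the wild-type pools did. The common biological coefficient of variation within the group, estimated by edgeR, was 14.6% for seizure, 8.56% for the 2 seizure-free Scn1a+/- libraries and 4.23% for wild type. The median standard deviation of log2(CPM + 1) over tested genes was 0.162 among seizure libraries and 0.0745 among wild-type libraries, and 12577 genes, or 80.8%, had the larger value in the seizure group. Of 10968 genes at a mean log2 CPM of 3 or more, the highest seizure library exceeded the lowest by over 1 log2 unit in 90 genes, against 0 genes among wild-type libraries. A range over 0.5 was found for 1912 genes among seizure libraries and for 18 among wild-type libraries. Pool size differs between the groups along with seizures and genotype, so its part in this spread cannot be told apart from theirs.

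**Figure D4:**
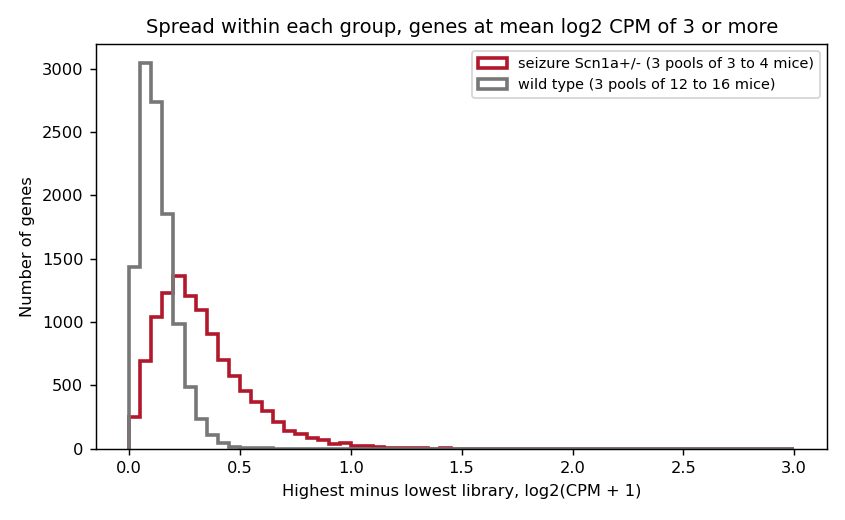
Number of genes (vertical axis) by the difference between the highest and lowest library of a group in log2(CPM + 1) (horizontal axis), for the 10968 genes at a mean log2 CPM of 3 or more, with the seizure group in red and wild type in grey. The seizure distribution extends past 1 log2 unit in 90 genes and the wild-type distribution in 0.

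The 10 genes with the largest range among seizure pools were Lif, Npas4, Tll1, Nptx2, Socs3, Plk5, Klhl40, S100a4, Ptx3 and Lct. Lif spanned 7.07-fold between its lowest and highest seizure library in CPM, Npas4 3.64-fold and Nptx2 3.04-fold. The order of the pools was not the same in these genes. Npas4 was highest in seizure library 1 and lowest in library 2, Lif was highest in library 2, and Nptx2 was highest in library 3. Tll1, a metalloprotease related to Bmp1, had 8.75, 30.5 and 19.0 CPM in the seizure libraries, against 2.78, 3.42 and 2.14 CPM in wild type. Klhl40, better known from muscle, had 6.51, 18.6 and 20.0 CPM in the seizure libraries, against 4.33, 4.47 and 3.68 CPM in wild type. S100a4, a calcium-binding protein of reactive astrocytes and immune cells, had 32.3, 24.4 and 11.2 CPM in the seizure libraries, against 1.64, 2.88 and 2.68 CPM in wild type, highest in library 1. Plk5, a polo-like kinase of neurons, had 11.0, 3.13 and 8.21 CPM in the seizure libraries, against 15.2, 16.7 and 14.8 CPM in wild type and was not called (adjusted p = 0.0568). Lct was lowest in seizure library 2.

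**Figure D5:**
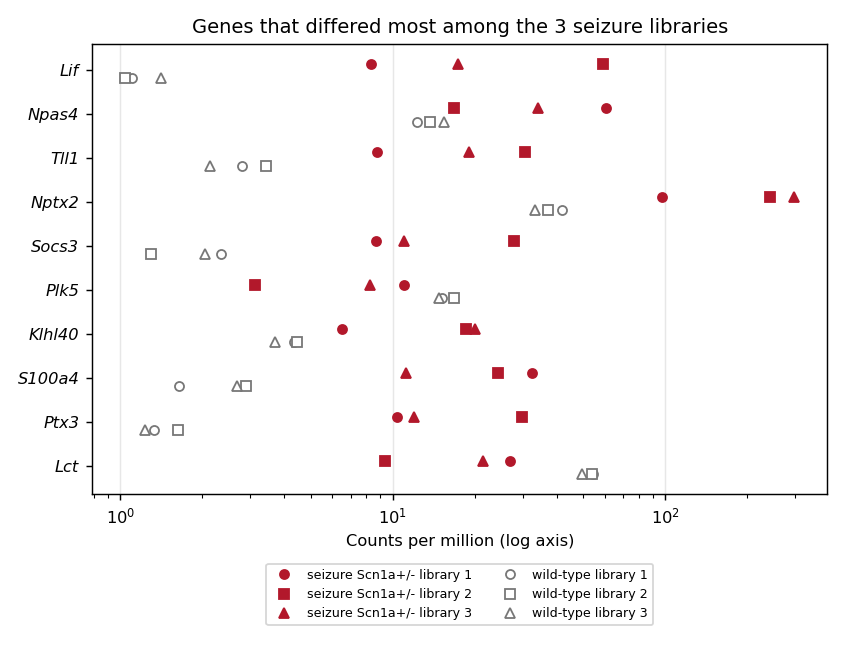
CPM by library (log axis) for the 10 genes with the largest range among the 3 seizure libraries, with filled red symbols for seizure and open grey symbols for wild type. The symbol of the highest seizure library changes from row to row, as for Npas4 at 60.7 CPM in library 1 and Nptx2 at 296 CPM in library 3.

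Seen over all called genes, seizure library 1 was most often nearest to wild type. Among the 908 higher genes it was the nearest seizure library for 455, against 157 for library 2 and 296 for library 3. The median difference from the wild-type mean of these genes was 0.54, 0.72 and 0.66 log2 units in seizure libraries 1, 2 and 3. Among the 707 lower genes library 1 was nearest for 302, library 2 for 136 and library 3 for 269. In a principal component analysis of the 8 P24 F1 libraries the first component, with 52.1% of the variance, put all 3 seizure libraries between -31.0 and -17.7 and the other 5 between 13.1 and 15.5. The second, with 19.3%, put seizure library 3 at -24.0 and seizure libraries 1 and 2 at 8.61 and 13.6.

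Seizure library 3 also stood apart in the ribosomal protein and oxidative phosphorylation lists. Which genes shaped the second component was not tested. Of 53 tested ribosomal protein genes 0 were called by edgeR, with 16 at an unadjusted p under 0.05, and 2 by DESeq2 and 2 by limma. Their median was 0.53 and 0.41 log2 units above the wild-type mean in seizure libraries 1 and 2 and -0.10 in library 3. Oxidative phosphorylation genes had medians of 0.39, 0.30 and -0.05 in seizure libraries 1, 2 and 3, and 2 of 58 (3.45%) were called higher. Of these, Atp5g1 passed in 3 of the 6 fits that left out 1 library each (highest adjusted p = 0.0815, without wild-type library 1) and Ndufa12 in 1 of the 6 fits that left out 1 library each (highest adjusted p = 0.146, without wild-type library 2). Synaptic vesicle genes ran the other way, at -0.19, -0.18 and 0.17, and the glycolysis list had medians of 0.06, -0.13 and 0.36. Ribosomal protein genes have many near-identical pseudogenes, so their counts are uncertain.

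Against the 2 seizure-free Scn1a+/- libraries of the same age and strain, 692 of 15873 tested genes were higher in the seizure libraries and 483 lower, or 4.36% and 3.04%. Both groups carry the Scn1a+/- genotype. Leaving out seizure-free library 1 or 2 lowered the 1175 calls to 348 or 294, with a lone library then assumed to vary like the other groups. The comparison shares the 3 seizure libraries with the one against wild type, so the 2 sets of results are not independent. All 25 libraries in 1 fit gave 2502 calls, and a fit of only the 5 libraries gave 633.

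Genes with large changes against wild type differed from the seizure-free libraries too. Penk had 194, 304 and 289 CPM in the seizure libraries, against 20.3 and 17.3 CPM in the seizure-free ones (log2 fold change 3.81, SE 0.20, adjusted p = 6.41e-07). Vim had 184, 197 and 171 CPM in the seizure libraries, against 50.8 and 45.1 CPM in the seizure-free ones (log2 fold change 1.94, SE 0.11, adjusted p = 9.29e-07). Lif had 8.36, 59.1 and 17.3 CPM in the seizure libraries, against 0.948 and 1.11 CPM in the seizure-free ones (log2 fold change 4.75, SE 0.81, adjusted p = 0.00299), and Inhba had 16.1, 40.1 and 27.8 CPM in the seizure libraries, against 3.96 and 3.09 CPM in the seizure-free ones (log2 fold change 3.01, SE 0.34, adjusted p = 0.000168). Tdo2 had 2.73, 0.607 and 1.07 CPM in the seizure libraries, against 11.5 and 10.1 CPM in the seizure-free ones (log2 fold change -2.84, SE 0.35, adjusted p = 0.000317). Gfap had 3350.2, 3014 and 2344 CPM in the seizure libraries, against 745 and 857 CPM in the seizure-free ones (log2 fold change 1.86, SE 0.16, adjusted p = 3.43e-05), with wild type at 544, 621 and 587 CPM on the same scale.

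Some activity genes were not even within the seizure-free group. Fosb had 35.5, 41.2 and 72.1 CPM in the seizure libraries, against 21.9 and 5.58 CPM in the seizure-free ones (log2 fold change 1.92, SE 0.41, adjusted p = 0.012), and Npas4 had 60.8, 16.7 and 34.1 CPM in the seizure libraries, against 31.3 and 17.3 CPM in the seizure-free ones (log2 fold change 0.64, SE 0.38, adjusted p = 0.374). In both genes and in Fos, which had 62.4, 36.5 and 59.4 CPM in the seizure libraries, against 23.0 and 10.4 CPM in the seizure-free ones, seizure-free library 1 was above seizure-free library 2 and above all wild-type libraries. Scn1a itself had 81.6, 68.4 and 88.5 CPM in the seizure libraries, against 115 and 92.4 CPM in the seizure-free ones and did not pass (log2 fold change -0.38, SE 0.12, adjusted p = 0.0825). By list, 15 of 34 reactive astrocyte genes and 14 of 25 cholesterol synthesis genes were called higher than in seizure-free libraries and 0 lower. Of 25 glucocorticoid-responsive genes 8 were called lower and 1 higher. Myelin genes were called for 0 of 29 by edgeR, with 6 at an unadjusted p under 0.05, and 1 by DESeq2. Mag, a myelin adhesion protein, had 160.3, 187 and 195 CPM in the seizure libraries, against 189 and 193 CPM in the seizure-free ones.

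Genes around Scn1a, next to the altered allele, were examined too. Among genes whose RefSeq coordinates begin within 2 Mb of those of Scn1a, 1 was called besides Scn1a itself. Scn9a, the neighbouring sodium channel gene Nav1.7, had 4.77, 1.97 and 3.96 CPM in the seizure libraries, against 6.63, 6.89 and 7.28 CPM in wild type and passed in 3 of the 6 fits that left out 1 library each (highest adjusted p = 0.13, without wild-type library 3). Csrnp3 had 111, 86.9 and 107 CPM in the seizure libraries, against 129, 128 and 132 CPM in wild type (adjusted p = 0.0502) and Scn3a had 70.6, 61.0 and 68.9 CPM in the seizure libraries, against 81.3, 77.8 and 81.5 CPM in wild type (adjusted p = 0.0779). Scn2a1, the Nav1.2 gene, had 251, 196 and 322 CPM in the seizure libraries, against 342, 312 and 309.6 CPM in wild type (adjusted p = 0.213). The other tested neighbours, Grb14, Cobll1, Slc38a11, Galnt3, Ttc21b, Gm13629, Scn7a, B3galt1 and Stk39, had log2 fold changes between -0.51 and 0.22. The libraries do not mark strand, so reads of overlapping genes cannot be assigned to one of them.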

How the data were processed

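Per the labels' protocols, RNA was isolated with TRIzol from pooled, flash-frozen hippocampi, and sequenced from TruSeq RNA Library Preparation Kit v2 libraries, which carry no strand mark. Alignment and counting tools in the submitters' processing notes are TopHat2 2.1.0 and HTSeq 0.6.1p1, beside CASAVA, on mm10. Neither the annotation nor whether counting used strand is given in the sources used here. The authors deposited raw counts per gene symbol for each library, 24421 symbols with 0 lines that name no gene. They also deposited a table of normalized signal, in which each of the 8 columns compared was proportional, within 0.1%, to a count file of its own group, and which was not used further. In that table columns 1 and 3 of the seizure group, and likewise of wild type, matched each other's count files, so library numbers here are those of the count files' samples. Groups are not affected.

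From the counts, the 3 seizure and 3 wild-type libraries were fitted alone by the quasi-likelihood method of edgeR 4.0.16 under R 4.3.3, beside limma 3.58.1, after filterByExpr at a minimum count of 10 and scaling by TMM. They were fitted apart from the other groups because the seizure pools held fewer mice. Residual degrees of freedom were 4 and prior ones 6.32, and the common biological coefficient of variation of this fit was 10.6%. Seizure and seizure-free libraries were compared in a fit of the 8 P24 F1 libraries. P-values were adjusted by Benjamini-Hochberg over all genes tested, and a gene was called under 0.05. CPM are scaled to the effective library size, the 3 values of a group being given in the order of its library numbers, which follow accession order. A standard error is the log2 fold change divided by the root of its F statistic. The pseudocount on the log scale was 1 CPM. The fit against wild type was also run on simulated counts with the same spread in both groups. That run did not cover the unequal spread of the seizure and wild-type pools.

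The members and the 51 gene lists were chosen with earlier results of these data known. Named genes are Scn1a, the 12 largest called rises and falls without overlap at a mean log2 CPM of at least 1, up to 5 called members of each list (2 where none was called), the 10 genes with the largest range among seizure libraries, the 5 largest changes in CPM each way, and genes within 2 Mb of Scn1a. The text leaves some of these unnamed, a few because they are not reported here, and names others only as chosen after their values were seen. Promoters come from RefSeq (GRCm38.p6). Alternatives were RLE and upper-quartile normalization, DESeq2 1.42.0, limma-voom, other filters, more or fewer libraries in the fit, and leaving out each library.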

Additional observations from a re-analysis of the deposited data

How the results depend on the processing

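The 1615 calls against wild type became 3579 with all 25 libraries in the fit, and ran from 681 to 3807 when 1 library was left out. Under the other 7 alternatives they stayed between 1559 and 1914. The 1175 calls against seizure-free Scn1a+/- became 2502 with all 25 libraries and 633 with the 5 libraries of both groups only, and ran from 294 to 1616 with 1 library left out. Of 155 named genes called against wild type, 131 passed in all 6 fits that left out 1 library, and 0 changed direction under any alternative run. Of the 155, the alternatives in tool, filter or fit each lost at most 1: Npas4 under DESeq2 (adjusted p = 0.0537), Slc17a6 under limma-voom (0.0632), Pdyn with at least 1 CPM in 3 libraries (0.0501), where Msr1 was not tested, and Atp5g1 in the 8-library fit (0.0587). Among genes not called, leaving out 1 library turned the direction of 5, whose log2 fold changes then ran from -0.039 to 0.141 for Il6st, -0.077 to 0.133 for Lifr, -0.11 to 0.43 for Nr4a1, -0.094 to 0.39 for Scn7a and -0.055 to 0.101 for Stk39. Seizure library 3 turned all 5, wild-type library 2 Scn7a and Stk39, and wild-type library 3 Scn7a. The variation among seizure pools was 14.6%, and 14.5% with at least 1 CPM in 3 libraries. RLE moved 0 of the 51 list medians by more than their spread among seizure pools. Leaving out a seizure library moved 6, 3 and 7 of them for libraries 1, 2 and 3. No paired analysis was possible because the library numbers run over the whole series and pair no libraries. Each pool is 1 sample, so the precision rests on 3 pools a group. With 1 seizure-free library left out, the lone one is assumed to vary like the other groups.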

Other observations

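A few epithelial and regeneration genes with almost no counts in wild type, chosen after their values were seen, were present in every seizure library. Krt75, a keratin of hair follicles, had 17, 77 and 67 counts in the seizure libraries and 0 in each wild-type and each seizure-free library. Against a floor of 3 counts over the wild-type group, Krt75 was at least 58.6-fold higher. Krt6a, a keratin of wounded skin, had 19, 9 and 39 counts in the seizure libraries and 0 in each wild-type and seizure-free library, at least 24.4-fold higher. Sprr1a, a cornified envelope protein known from regenerating sensory neurons, had 41, 86 and 117 counts in the seizure libraries, against 1 and 3 in the seizure-free and 0, 1 and 0 in the wild-type libraries. In the other 17 libraries of the series the highest count was 6 for Krt75, 1 for Krt6a and 1 for Sprr1a. All 3 were called higher than in wild type. They passed the low-count filter only through the seizure libraries and were chosen for this pattern, so the calls are no separate evidence.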
